A study of Mus musculus with 10 samples.

Results

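The acute phase proteins described here are the products of 10 mouse genes, *Saa1*, *Saa2*, *Hp*, *Hpx*, *Orm1*, *Orm2*, *Lcn2*, *Crp*, *Itih3* and *Itih4*. They were chosen by name as plasma proteins of the hepatic response to inflammation, and all 10 were found among the 16647 genes counted. Liver RNA was sequenced from 5 control mice and 5 mice given MI-883, a compound that activates the human constitutive androstane receptor (CAR) and blocks the human pregnane X receptor (PXR). All animals were males of the humanized PXR-CAR-CYP3A4/3A7 model, in which human genes stand in for the mouse receptors and for mouse Cyp3a genes. They were 10 to 15 weeks old when a high-fat diet began, had 8 weeks of this diet and were then treated for 4 weeks. MI-883 was gavaged at 5 mg/kg on 3 days per week, and control mice received the vehicle of DMSO, PEG300 and corn oil. There was no group on a normal diet and none with an inflammatory stimulus, so the levels are those of mice fed a high-fat diet and not of an acute response that was induced.

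The acute phase response is a change in hepatocyte secretion after injury or infection. Interleukin-1 and interleukin-6 reach the hepatocyte from macrophages and other cells, and act there through NF-kappa B, STAT3 and transcription factors of the C/EBP family. Positive acute phase proteins then rise in plasma and negative ones such as albumin fall. In mice serum amyloid A is the most responsive of these proteins, while C-reactive protein, the classical human marker, responds little.

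Library totals lay between 23513665 and 36221514 counts, and the exact permutation test (two-sided) of the totals between the groups gave p = 0.111. Levels are given as CPM, the counts of a gene relative to the total of its library, scaled by the trimmed mean of M-values (TMM), and means with the SD over 5 livers. The 8 hepatocyte markers summed to between 64768 and 76295 CPM in control and between 57955 and 68478 CPM in treated livers. Their log2 fold changes were all below 0, with a median of -0.25, and 2 had an unadjusted p under 0.05, as 15.6% of all tested genes did. The 5 bile duct markers were all above 0 (median 0.55) and summed to between 25 and 116 CPM in control and between 35.1 and 190 CPM in treated livers. Of the endothelial and of the stellate markers 5 of 6 each were above 0 (medians 0.24 and 0.27), as were 51% of all tested genes. The 9 neutrophil markers summed to between 1.31 and 5.37 CPM, and *Ly6g*, which defines neutrophils in mice, had at most 1 count in a liver. Fewer cells of a type and less RNA per cell cannot be told apart in bulk liver. Of 48 tested genes in 9 lists of cell type markers, 0 passed the threshold in edgeR, against 1.03% of all tested genes. An unadjusted p under 0.05 was seen in 10, against 15.6% of all tested genes. In DESeq2 1 passed, against 3.5% of all tested genes, the endothelial gene *Cdh5* (named after its value was seen).

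The bases upstream of 5 start sites are shown because these genes vary together between livers (*Saa1*, *Saa2* and *Lcn2*) or are neighbours of which 1 passed the test between the groups (*Orm2* and *Orm3*). Each line gives the 250 bases before the start site, taken from RefSeq on GRCm38.p6, 5′ to 3′ on the strand of the gene. Capitals mark a match to the C/EBP motif TTGCNNAA.
*Saa1* (chr7:46742981-46743230, minus strand): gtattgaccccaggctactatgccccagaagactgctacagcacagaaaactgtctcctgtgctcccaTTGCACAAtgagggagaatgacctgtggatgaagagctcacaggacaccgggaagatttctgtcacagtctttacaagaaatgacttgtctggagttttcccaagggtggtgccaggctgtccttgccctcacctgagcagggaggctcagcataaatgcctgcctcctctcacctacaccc
*Saa2* (chr7:46751583-46751832, plus strand): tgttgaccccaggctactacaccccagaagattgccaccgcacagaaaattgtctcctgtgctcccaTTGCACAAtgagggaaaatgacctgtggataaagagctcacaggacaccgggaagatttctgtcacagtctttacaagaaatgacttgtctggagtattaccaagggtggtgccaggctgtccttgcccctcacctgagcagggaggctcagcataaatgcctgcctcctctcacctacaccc
*Lcn2* (chr2:32387740-32387989, minus strand): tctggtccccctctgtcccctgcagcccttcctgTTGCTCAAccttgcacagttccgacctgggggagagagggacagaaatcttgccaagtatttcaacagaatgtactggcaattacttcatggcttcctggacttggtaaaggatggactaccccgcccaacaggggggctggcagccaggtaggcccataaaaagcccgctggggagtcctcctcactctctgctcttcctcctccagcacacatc
*Orm2* (chr4:63362199-63362448, plus strand): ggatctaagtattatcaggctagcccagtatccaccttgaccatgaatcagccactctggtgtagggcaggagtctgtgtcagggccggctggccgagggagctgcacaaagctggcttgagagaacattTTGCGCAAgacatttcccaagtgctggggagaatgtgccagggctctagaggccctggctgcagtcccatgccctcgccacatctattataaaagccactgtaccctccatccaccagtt
*Orm3* (chr4:63355908-63356157, plus strand): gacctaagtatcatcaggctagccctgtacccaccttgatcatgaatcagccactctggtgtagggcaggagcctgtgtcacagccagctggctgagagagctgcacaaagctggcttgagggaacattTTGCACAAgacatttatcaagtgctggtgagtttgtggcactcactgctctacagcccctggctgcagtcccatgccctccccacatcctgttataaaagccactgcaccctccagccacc
Windows of 300 bases, which also hold the 50 bases after the start, were found for 8 of the 10 genes, *Hp* and *Orm1* not among them. On either strand the C/EBP motif TTGCNNAA was present in 5 of these 8 windows and in 10.8% of the 27025 windows in the RefSeq table. The first base of the match lay at position -182 in *Saa1*, -183 in *Saa2*, -200 in *Hpx*, -120 in *Orm2* and -216 in *Lcn2*. The STAT motif TTCNNNGAA was found in 1 of the 8, at position -51 of *Itih4*, against 8.47% of all windows. The motif CTGGGAA of interleukin-6 responses was in 0 of the 8 (11.1% of all windows) and the kappa B consensus in 0 of the 8 (8.18%). *Orm3* had the C/EBP motif at position -121 and the reverse complement of CTGGGAA at position 10. The windows of *Saa1* and *Saa2* were identical at 95.3% of aligned positions, gaps included, and those of *Orm2* and *Orm3* at 86.2%. No matches of different motifs overlapped in these windows. These matches describe letters only and are not evidence of binding.

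The first question was how strongly each gene is expressed. The 10 genes together took 1.07% to 1.51% of the counts of a liver, and single genes had between 386 and 183013 counts. Levels between genes were compared in control livers per kilobase of the longest transcript with a RefSeq match. Haptoglobin (*Hp*, which binds free hemoglobin) was highest at 3863 ± 208 CPM per kb (SD, n = 5), followed by hemopexin (*Hpx*, which binds free heme) at 3220 ± 265 CPM per kb. *Orm1*, one of the genes for the drug-binding plasma protein orosomucoid, came next at 1081 ± 107 CPM per kb. None of these 3 overlapped in level with its neighbour in the order. The heavy chain gene *Itih4* of the inter-alpha-trypsin inhibitor family (422 ± 113 CPM per kb), *Saa1* (341 ± 58.9), *Crp* (257 ± 21.3), *Itih3* (173 ± 44) and *Saa2* (172 ± 48.1) followed, each of these 5 overlapping its neighbours among them, while *Saa2* did not overlap *Lcn2* below it. The lowest levels per length were those of *Lcn2*, which encodes a carrier of iron-binding siderophores, at 53 ± 15.7 CPM per kb and of *Orm2* at 35.1 ± 10.3 CPM per kb, and these also overlapped. *Crp* overlaps the gene model *Gm38051* on the same strand, and how reads common to both were counted is not given in the sources used here.

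**Figure D1:**
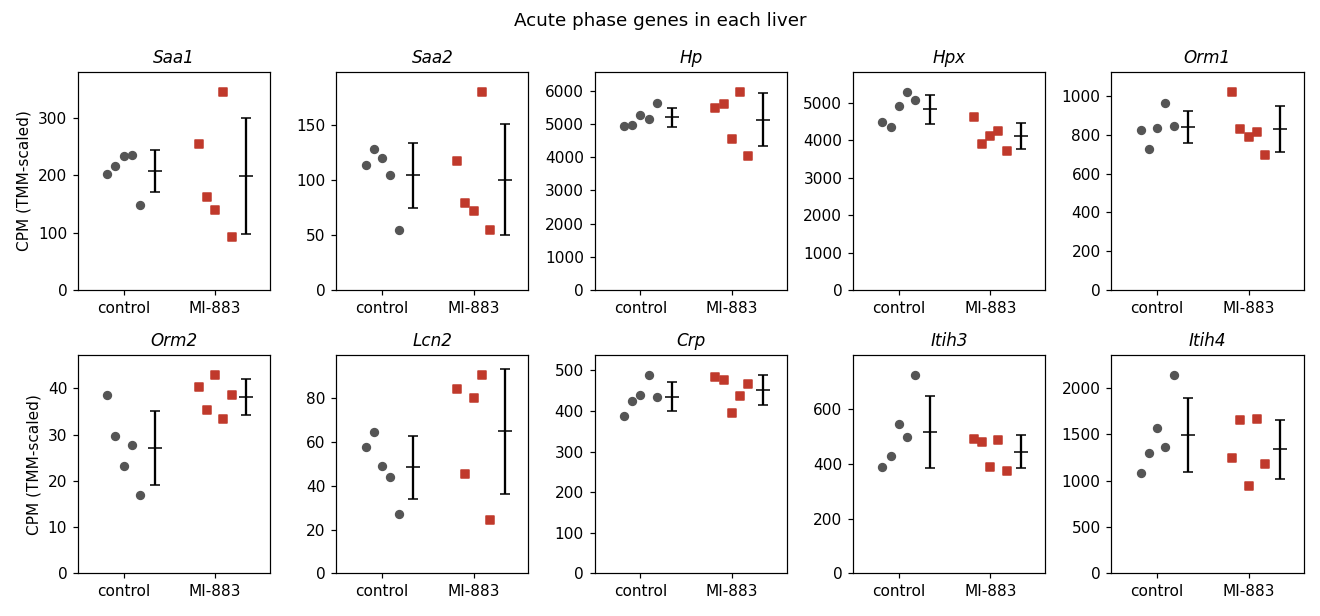
CPM (vertical axes, linear from 0) of the 10 acute phase genes in each of 5 control livers (grey circles) and 5 MI-883-treated livers (red squares), in replicate order from left to right, with the mean and SD of each group as bars. The groups overlap in every gene; for *Saa1* the treated livers run from 92.5 to 345.7 CPM and the control livers from 148.1 to 236.1 CPM.

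The second question was whether MI-883 changed these genes. All 10 passed the count filter and were tested, and 0 of 10 had an adjusted p under 0.05 in edgeR, where 1.03% of the 13219 tested genes did. The adjusted p lay between 0.188 and 0.961. DESeq2 also called 0 of the 10 (adjusted p between 0.0945 and 0.968), against 3.5% of all tested genes. At an unadjusted p under 0.05 stood 2 of the 10, *Orm2* and *Hpx*, against 15.6% of all genes. By sign, 3 log2 fold changes were above 0 and 7 below, where 51% of all tested genes were above 0. The median was -0.038 over the 10 genes and 0.0045 over all tested genes. With scaling by total counts 5 were above 0 and 5 below. In no gene did the groups part without overlap, which 3.98% of all tested genes did.

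*Hpx* (chromosome 7, 105591611 to 105600116 on GRCm38, as all positions here) was at 4503, 4345, 4907, 5299 and 5079 CPM in control replicates 1 to 5. In the MI-883-treated livers it was at 4620, 3896, 4120, 4257 and 3712 CPM. All 5 treated livers lay below the control median and 4 below the lowest control, with replicate 1 inside the control range. The means were 4827 ± 397 and 4121 ± 349 CPM (SD, n = 5), and the log2 fold change was -0.23 (standard error 0.0961, 95% interval -0.44 to -0.020, adjusted p = 0.277 in edgeR). The exact permutation test (two-sided) gave p = 0.0317, a level that 14.1% of tested genes reached with p under 0.05.

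*Hp* (chromosome 8, 109575128 to 109579172), the partner of hemopexin in scavenging hemoglobin and its heme, was at 4943, 4981, 5257, 5156 and 5640 CPM in control livers. Treated livers held 5465, 5592, 4557, 5967 and 4030 CPM. The highest and the lowest of the 10 values were both in treated livers, replicates 4 and 5. The difference between the groups on the log2 scale was -0.020 (standard error 0.115, 95% interval -0.27 to 0.23, adjusted p = 0.951 in edgeR), and this turned to 0.018 with scaling by total counts.

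Serum amyloid A is carried on high-density lipoprotein in plasma. *Saa1* (chromosome 7, 46740497 to 46743181) was at 202.9, 217, 233.9, 236.1 and 148.1 CPM in control replicates 1 to 5, and at 254.2, 162.3, 139, 345.7 and 92.5 CPM in treated replicates. Of the treated livers, 2 lay above every control liver and 2 below. *Saa2* (chromosome 7, 46751833 to 46754313) was at 113.4, 128.2, 120.1, 104 and 54.3 CPM in control livers and at 116.9, 78.6, 71.6, 179.7 and 54.2 CPM in treated livers. Replicate 4 was again the highest treated liver and replicate 5 the lowest. In edgeR *Saa1* had a log2 fold change of -0.063 (standard error 0.281, 95% interval -0.67 to 0.54, adjusted p = 0.935) and *Saa2* one of -0.056 (standard error 0.296, adjusted p = 0.947). Both signs turned without treated replicates 2, 3 or 5, and that of *Saa2* also without control replicates 2 or 3, with adjusted p of at least 0.447 throughout. The interval of *Saa1* reached from 0.629-fold to 1.46-fold, so that a change within it was not excluded with 5 livers per group. Of the 100-base stretches in its transcripts, *Saa1* has 8.96% in common with *Saa2*, and *Saa2* has 8.63% in common with *Saa1*. With their counts summed the log2 fold change was -0.060 (adjusted p = 0.939).

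*Lcn2* (chromosome 2, 32384637 to 32387739), whose product lipocalin-2 withholds iron from bacteria, was at 57.7, 64.7, 49, 44.2 and 27.1 CPM in control livers. It was at 84.2, 45.3, 80.1, 90.7 and 24.6 CPM in treated livers. The values of 3 treated livers lay above every control liver, that of replicate 5 below, and that of replicate 2 within the control range. The difference between the groups was 0.42 on the log2 scale and did not pass the test (standard error 0.311, 95% interval -0.25 to 1.09, adjusted p = 0.544 in edgeR). With one liver left out it lay between 0.27, without control replicate 5 or treated replicate 4, and 0.63, without treated replicate 5. Lipocalin-2 is also stored in neutrophil granules. Among the defining markers of these cells only *S100a8* and *S100a9* were tested, with log2 fold changes of -0.37 (adjusted p = 0.732) and 0.14 (adjusted p = 0.886).

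*Crp* (chromosome 1, 172698056 to 172699966) was at 435 ± 36.1 CPM in control and 451 ± 36.7 CPM in treated livers. With a log2 fold change of 0.052 and a 95% interval from -0.13 to 0.23, it had the narrowest interval of the 10 genes, and with one liver left out the value lay between 0.014 and 0.098. *Orm1* (chromosome 4, 63344556 to 63348163) was at 838 ± 82.8 and 829 ± 119 CPM. The difference between the groups was -0.016 on the log2 scale (adjusted p = 0.961 in edgeR, standard error 0.107), and this value was positive with scaling by total counts and with a stricter count filter. For *Itih3* (chromosome 14, 30908572 to 30923787) the log2 fold change was -0.22 (95% interval -0.55 to 0.12, adjusted p = 0.527 in edgeR), and -0.063 without control replicate 5. For its neighbour *Itih4* (30886476 to 30901986) it was -0.16 (95% interval -0.57 to 0.25, adjusted p = 0.719), and 0.0079 without control replicate 5.

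**Figure D2:**
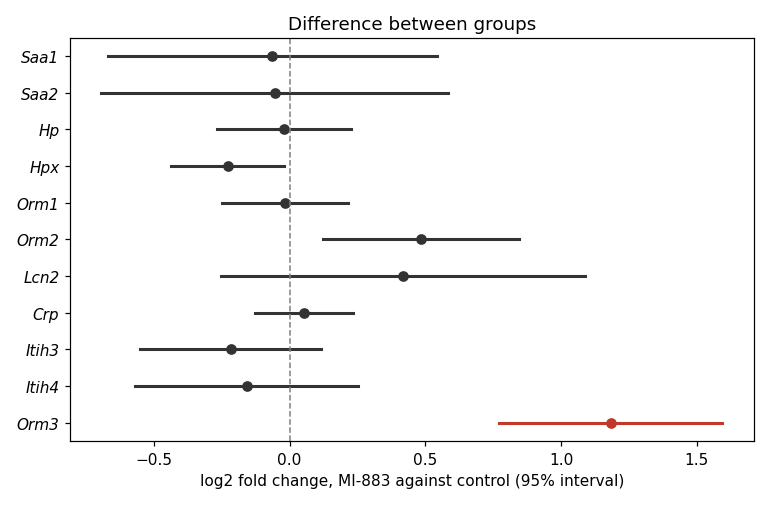
Log2 fold change of MI-883-treated against control livers (horizontal axis) with its 95% interval from edgeR for the 10 acute phase genes and for *Orm3*, with the dashed line at no change. *Orm3*, drawn in red, is the gene whose adjusted p was under 0.05, and its interval runs from 0.77 to 1.59; that of *Hpx* ends at -0.020.

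The orosomucoid cluster on chromosome 4 held *Orm2*, which had the largest log2 fold change of the 10 genes, and *Orm3*, which passed the test. The order along the plus strand is *Orm1*, *Orm3* (63356069 to 63359506) and *Orm2* (63362449 to 63365877). *Orm2* was at 38.5, 29.6, 23.2, 27.7 and 16.9 CPM in control livers and at 40.4, 35.3, 42.9, 33.3 and 38.6 CPM in treated livers. All 5 treated livers lay above the control median and 3 above every control, while control replicate 1 lay inside the treated range. The means were 27.2 ± 7.99 and 38.1 ± 3.84 CPM (SD, n = 5), and the log2 fold change was 0.48 (standard error 0.167, 95% interval 0.12 to 0.84, adjusted p = 0.188 in edgeR and 0.0945 in DESeq2). The exact permutation test (two-sided) gave p = 0.0238. With control replicate 1 left out, the adjusted p of *Orm2* was 0.0434, and in the other fits that left out one liver it was above 0.05.

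*Orm3*, which is not one of the 10 genes, was at 38, 29.7, 17, 24.6 and 21 CPM in control livers and at 64.1, 68.8, 46.9, 68.3 and 48.7 CPM in treated livers. Every treated liver lay above every control liver. It rose from 26.1 ± 8.13 to 59.4 ± 10.7 CPM (SD, n = 5), which is 2.27-fold or 1.18 on the log2 scale (95% interval 0.77 to 1.59, adjusted p = 0.00977 in edgeR and 2.26e-07 in DESeq2). The exact permutation test gave p = 0.00794, the smallest it can give for 5 against 5 livers. Its adjusted p stayed under 0.05 in 10 of 10 fits that left out one liver. *Orm3* had 0% of its 100-base stretches in common with other genes, while *Orm1* and *Orm2* each had 6.95% in common with the other. *Orm1* carried most of the counts of the cluster, and the sum of the 3 genes had a log2 fold change of 0.055 (adjusted p = 0.827). The difference between the fold changes of *Orm3* and *Orm1* or *Orm2* was not tested.

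**Figure D3:**
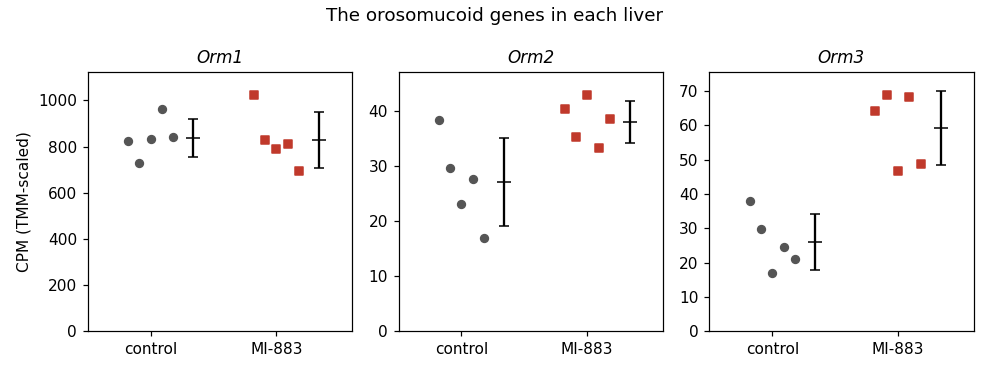
CPM (vertical axes, linear from 0) of *Orm1*, *Orm2* and *Orm3* in 5 control livers (grey circles) and 5 MI-883-treated livers (red squares) in replicate order, with the mean and SD of each group as bars. The groups are apart in *Orm3*, with control livers up to 38 CPM and treated livers from 46.9 CPM, and overlap in *Orm1* and *Orm2*.

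The third question was how far the livers of one group spread. Among 7788 genes of at least 10 CPM, the median coefficient of variation (CV) over 5 livers was 8.67% in control and 9.79% in treated livers. *Saa1* had a CV of 17.3% in control and 50.9% in treated livers, and *Saa2* one of 28% and 49.9%. In control livers they exceeded 89.2% and 97% of those 7788 genes. In treated livers both exceeded 99.4% of them, with the highest liver 3.74-fold above the lowest for *Saa1*. *Lcn2* had a CV of 29.6% in control and 44.1% in treated livers. *Hp* had one of 5.38% and 15.6%. *Orm2* had the opposite order, with 29.4% in control and 10.1% in treated livers, and so had *Itih3* with 25.5% and 13.3%. *Itih4* was high in both groups (26.9% in control and 23.5% in treated livers), above 96.5% and 95.4% of those genes. *Crp* (8.29% and 8.14%) and *Hpx* (8.22% and 8.46%) lay close to the median gene in both groups.

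The spread itself was compared by the mean absolute deviation of log2 CPM from the group median, with an exact permutation test (two-sided) of each gene. It was larger in treated livers in 7 of the 10 genes, against 56.7% of all tested genes. In 0 of 10 genes did the groups differ at p under 0.05, a level that only 0.401% of tested genes reached. The test thus seldom gave so small a p for any gene, and 0 of 10 says little about these genes. *Saa1* had the smallest p at 0.119, with deviations of 0.176 in control and 0.554 in treated livers. Without treated replicate 2 its exact permutation p was 0.0317. For *Hp* the deviations were 0.0536 and 0.172 (exact permutation p = 0.238). The difference of SDs in place of mean deviations gave an exact permutation p of 0.0159 for *Hp*, and 6.84% of all tested genes were under 0.05 by that measure. Without treated replicates 1, 2 or 4 the mean deviations of *Hp* also gave an exact permutation p of 0.0159. In a group of 5 livers the median is the value of 1 of them, whose deviation is 0, while in a group of 4 it is not. The values with a liver left out are thus not on the same footing, and the share of all tested genes under 0.05 is not given for them. No difference in the spread of serum amyloid A passed this test with 5 mice in each group, which does not show that the spreads were alike.

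**Figure D4:**
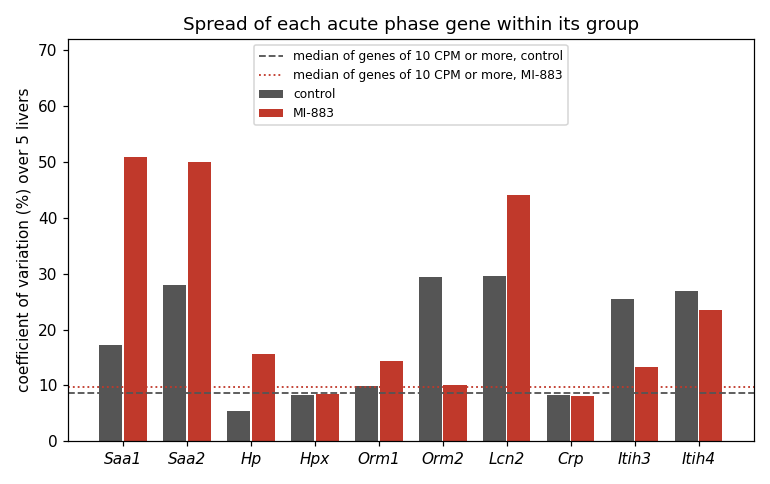
Coefficient of variation in percent over 5 livers (vertical axis, from 0) of each acute phase gene in control (grey bars) and MI-883-treated livers (red bars), with dashed and dotted lines at the median of genes of at least 10 CPM, 8.67% and 9.79%. The bars of *Saa1* reach 17.3% and 50.9%, and those of *Orm2* 29.4% and 10.1%.

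The extremes fell on few livers. Treated replicate 5 was the lowest of its group in 7 of the 10 genes (*Saa1*, *Saa2*, *Hp*, *Hpx*, *Orm1*, *Lcn2* and *Itih3*). Treated replicate 4 was the highest in 5 (*Saa1*, *Saa2*, *Hp*, *Lcn2* and *Itih4*). Control replicate 5 was the lowest control in *Saa1*, *Saa2*, *Orm2* and *Lcn2* and the highest in *Hp*, *Itih3* and *Itih4*. How often each liver was at an end of its group over all tested genes was not measured. These counts thus have no background and may hold for the liver as a whole. The related gene *Saa3*, which is expressed in macrophages as well as in liver, was at 41.3 CPM in treated replicate 4 and at 5.03 CPM in treated replicate 5, again the ends of its group. The macrophage and Kupffer cell markers summed to 296 CPM in treated replicate 4 and to 245 CPM in treated replicate 5, within a range of 245 to 570 CPM in treated and 271 to 447 CPM in control livers. The part of these cells in the spread was not tested.

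Which genes varied together was asked over the 45 pairs, with the deviation of log2 CPM from the group mean in 10 livers and a permutation test of 100000 resamples. After Benjamini-Hochberg adjustment over the 45 pairs, 7 pairs had p under 0.05, of which 5 were positive. The share of such pairs among other genes was not measured, so this count has no background to be read against. Over the 5 livers of each group, r of these 7 pairs had the same sign in both groups. Some other pairs changed sign, such as *Saa2* with *Hp* (r = -0.882 in control and 0.855 in treated livers) and *Hp* with *Lcn2* (-0.955 and 0.66). Differences in r between the groups were not tested. *Saa1* and *Saa2* varied together (Pearson r = 0.93, adjusted permutation p = 0.0054, Spearman rho = 0.867 with adjusted permutation p = 0.0286). Without the 2 livers farthest from the median of *Saa1*, r was 0.872. Whether reads of their common stretches moved between them was not tested. *Lcn2* went with *Saa2* (r = 0.823, adjusted permutation p = 0.0209, rho = 0.842 with 0.0286) and with *Saa1* (r = 0.786, adjusted permutation p = 0.0381, rho = 0.745 with 0.0864). Without the 2 farthest livers these values were 0.563 and 0.531, so that both relations rest in part on those livers. With deviations permuted within groups both pairs were above 0.05 (adjusted permutation p = 0.0521 and 0.12), and *Hp* and *Itih3* (r = 0.718) were below it (adjusted permutation p = 0.0081). *Hpx* and *Orm1* also varied together (r = 0.878, adjusted permutation p = 0.006, rho = 0.83 with 0.0286), and r was 0.768 without the 2 farthest livers. With group means kept, r of this pair was 0.652 and did not pass (adjusted permutation p = 0.146), and its rho did not pass with deviations permuted within groups (0.0517). By that second measure the rho of *Saa1* and *Saa2* did not pass either (0.0566), while their r passed with group means kept (adjusted permutation p = 0.00855).

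By Pearson r a second set joined the heavy chains and *Orm2*. *Itih3* and *Itih4*, neighbouring genes on chromosome 14, had r = 0.878 (adjusted permutation p = 0.00666, rho = 0.842 with 0.0286). *Orm2* ran against both, with r = -0.89 for *Itih4* (adjusted permutation p = 0.0054, rho = -0.903 with 0.0286) and r = -0.9 for *Itih3* (adjusted permutation p = 0.00666, rho = -0.709 with 0.119). Without the 2 farthest livers r was -0.868 for *Orm2* and *Itih4* and -0.692 for *Orm2* and *Itih3*, and 0.748 for the heavy chains. With group means kept, *Orm2* and *Itih4* did not pass (r = -0.798, adjusted permutation p = 0.0578), while the heavy chains and *Orm2* with *Itih3* did (adjusted permutation p = 0.0259 and 0.0285). The rho of the heavy chains had an adjusted permutation p of 0.0517 with deviations permuted within groups. By rank *Hp* also went with *Itih3* (rho = 0.842) and *Itih4* (rho = 0.879), with an adjusted permutation p of 0.0286 each. By r these pairs did not pass (0.718 and 0.709, adjusted permutation p = 0.094 each). Permuted within groups, both rho passed (adjusted permutation p = 0.033 and 0.018), while r of *Hp* and *Itih4* did not (0.103). In control replicates 1 to 5 *Itih4* was at 1086, 1294, 1564, 1363 and 2136 CPM, and in treated replicates at 1240, 1653, 943.1, 1658 and 1175 CPM. Control replicate 1, with the highest *Orm2* of its group, had the lowest *Itih4*, and so had treated replicate 3. In these livers the bile duct markers summed to 116 and 190 CPM, the highest values of their groups, and the TMM factors were 1.046 and 1.099, also the highest. Control replicate 5, at the other end, had bile duct markers at 25 CPM and a TMM factor of 0.949. The part of the bile duct markers and of the scaling in these relations was not tested. With scaling by total counts r was -0.937 for *Orm2* and *Itih4*, -0.837 for *Orm2* and *Itih3*, and 0.807 for the heavy chains.

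**Figure D5:**
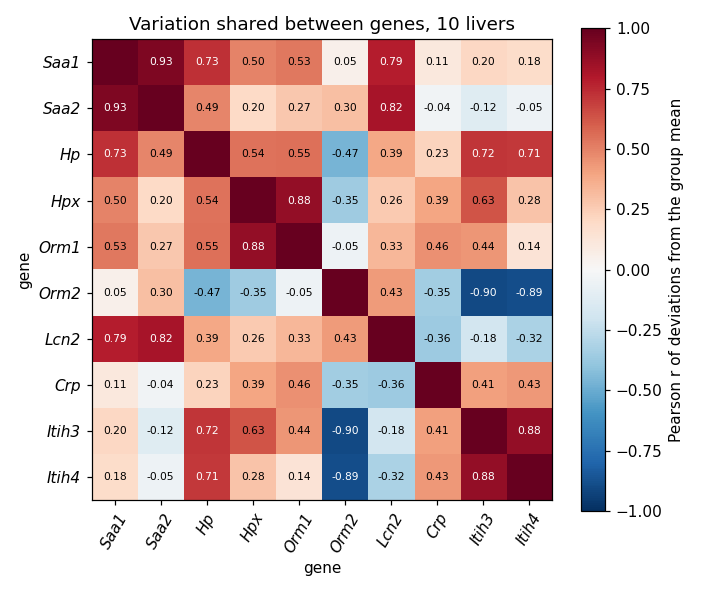
Pearson r between the deviations of log2 CPM from the group mean for each pair of acute phase genes over 10 livers, with red for positive and blue for negative r and the value in each field. *Saa1*, *Saa2* and *Lcn2* have r between 0.79 and 0.93, and *Orm2* has r of -0.9 with *Itih3* and -0.89 with *Itih4*.

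Genes outside the 10 were ranked by the same r over the 10 livers among tested genes of at least 1 CPM, as a description without a test. For *Itih4* the 5 most alike were *F2*, which encodes prothrombin (r = 0.992), *Fgg* and *Fga* of fibrinogen (0.978 and 0.968), *Serpinf2*, which encodes alpha-2-antiplasmin (0.977), and *Fgf1* (0.973). For *Saa1* they were *Vamp5* (0.958), *Ppp1r35* (0.942), the ribosomal protein genes *Rpl13a* (0.94) and *Rps14* (0.936), and *Bola2* (0.932). For *Hp* they were the ribosomal protein gene *Rpl8* (0.972), *Chmp2a* (0.964), *Ykt6* (0.962), *Thrsp*, a lipogenic gene (0.961), and *Tmem238* (0.955). The adjusted p of these 15 genes between the groups was above 0.05.

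The remaining genes of the pathway came from lists. Of 20 other positive acute phase genes 19 were tested, and 1 was higher with an adjusted p under 0.05 (*Orm3*) and 0 were lower, against 0.764% and 0.265% of all tested genes. An unadjusted p under 0.05 was seen in 7 of the 19, against 15.6% of all tested genes. These were *Orm3*, which was higher, and *Lbp*, *Lrg1*, *Fgb*, *Fgg*, *Hamp* and *Mt1*, which were lower. The median log2 fold change of the list was -0.15. By sign 4 were above 0 and 15 below, where 51% of all tested genes were above 0. The hepatocyte markers lay on the same side at a median of -0.25. *Mt1*, which encodes the metal-binding protein metallothionein-1, had the lowest value at -1.04 (standard error 0.396, adjusted p = 0.232 in edgeR), with 93.3 ± 51.5 CPM in control and 45.3 ± 24.5 CPM in treated livers. The fibrinogen genes *Fga*, *Fgb* and *Fgg*, described after their values were seen, had log2 fold changes of -0.27, -0.38 and -0.41 (adjusted p between 0.168 and 0.338 in edgeR). *Fgg* passed in DESeq2 (0.0481). *Hamp*, which encodes the iron hormone hepcidin and was also chosen after its values were seen, was at 625 ± 206 CPM in control and 373 ± 109 CPM in treated livers (log2 fold change -0.74, adjusted p = 0.147).

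Of 10 negative acute phase genes, which encode carriers such as albumin and transthyretin, 0 passed in edgeR in either direction. An unadjusted p under 0.05 was seen in 4, against 15.6% of all tested genes. All 10 log2 fold changes were below 0, where 51% of all tested genes were above 0. The median was -0.21 against 0.0045 over all tested genes. With scaling by total counts 9 of 10 were below 0. The hepatocyte markers, which also hold *Alb*, were below 0 in 8 of 8, and in 7 of 8 with total counts. Whether the hepatocyte, bile duct, endothelial and stellate markers had a part in these values was not tested. *Apoa1*, which encodes the main protein of high-density lipoprotein, had the largest at -0.51 (adjusted p = 0.0755 in edgeR, 0.0353 with total counts and 0.00066 in DESeq2). Among 4 tested genes of the heavy chain family and its light chain bikunin, 0 passed in edgeR or DESeq2, and the unadjusted p was under 0.05 in 1. The largest value was that of *Itih5* (0.55, adjusted p = 0.323) and the lowest that of *Itih2* (-0.21, adjusted p = 0.32).

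The cytokines that drive the response were near or below the limit of these libraries. *Il6* had 4 counts in 1 liver and 0 in the others, where 0 counts allow up to 3, that is up to between 0.0876 and 0.128 CPM before TMM scaling (counting error only). *Tnf* had between 3 and 16 counts (log2 fold change 0.13, adjusted p = 0.902) and *Il1b* between 27 and 98 (-0.15, adjusted p = 0.847). Of 7 listed cytokine genes 3 were tested, and 0 passed in edgeR or DESeq2 or had an unadjusted p under 0.05. Of 11 receptor genes 0 passed in edgeR or DESeq2 and 1 had an unadjusted p under 0.05, against 15.6% of all tested genes. Among them *Il22ra1*, the receptor for interleukin-22, was at 0.42 (adjusted p = 0.436) and *Il1rap*, the accessory protein of the interleukin-1 receptor, at -0.29 (adjusted p = 0.209). Of 18 signalling genes and transcription factors 0 passed in edgeR, and 1 had an unadjusted p under 0.05. *Cebpa*, a C/EBP factor of mature hepatocytes, was at 644 ± 37.4 CPM in control and 524 ± 55.2 CPM in treated livers (log2 fold change -0.30, adjusted p = 0.133 in edgeR and 0.0151 in DESeq2). *Tyk2*, a kinase of cytokine receptors, had the largest positive value at 0.11 (adjusted p = 0.581). *Stat3*, which carries the interleukin-6 signal, had a log2 fold change of 0.0019 and its feedback inhibitor *Socs3*, a sensitive target of STAT3, one of -0.27 (adjusted p = 0.465), both named for their role after their values were seen.

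Among 10 receptors and partners of the proteins 0 passed in edgeR, against 1.03% of all tested genes. An unadjusted p under 0.05 was seen in 3, against 15.6% of all tested genes. In DESeq2 2 passed, against 3.5% of all tested genes, *Slc48a1* and *Scarb1*. *Lrp2*, the megalin receptor that takes up lipocalin-2, had between 4 and 46 counts and the largest value at 1.76 (adjusted p = 0.164). *Fpr2*, a receptor for serum amyloid A, had the lowest at -0.53 (adjusted p = 0.493). *Slc48a1*, a heme transporter named here since its value lay next to the threshold, was at 55.6 ± 5.25 CPM in control and 72.2 ± 6.21 CPM in treated livers (log2 fold change 0.37, adjusted p = 0.0506 in edgeR, 0.0483 with the size factors of DESeq2 and 0.00204 in DESeq2). It overlaps *Hdac7* on the other strand, and the strand setting of the counting is not given in the sources used here.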

How the data were processed

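Liver RNA of 5 control and 5 MI-883-treated mice was sequenced as paired reads of 150 bases from directional libraries. The authors mapped these reads to mouse (mm10 in the processing notes of the submitters, which also name fastp 0.23.0 and featureCounts) and deposited raw counts per Entrez gene, without normalization. The annotation and the strand setting are not given in the sources used here. Symbols were taken from RefSeq (GRCm38.p6), which matched 16644 of 16647 genes. Transcripts were those of GENCODE.

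Genes with at least 60 counts over the 10 livers (13219) were tested with edgeR 4.0.16 in R 4.3.3 (TMM, quasi-likelihood test with no term besides condition, Benjamini-Hochberg, threshold 0.05). DESeq2 1.42.0 (Wald test, no independent filtering) was an alternative. Log2 CPM had a prior count of 1. Each level and spread was tested by exact permutation of livers, two-sided. The 10 genes, the lists and the alternatives were chosen with earlier results of these data known. Genes were named if they were among the 10, if they passed the threshold in a list or, where none did, had its largest value in either direction, or if they were among the 5 most alike in variation to *Saa1*, *Hp* and *Itih4*. Other genes, among them *Mt1*, *Lbp*, *Lrg1*, *Saa3*, *S100a8*, *S100a9* and *Scarb1*, were named outside this rule with their values known. The tests were tried on simulated data. Each library is labelled as a separate replicate, and the replicates of a group differed by more than counting noise. Other settings tried were size factors of DESeq2, total counts, other count filters, a replicate block and leaving out each liver. The summed paralogs and the permutation within groups were added after seeing the data. Library totals of at least 23513665 counts set a floor of 3 counts, which covers counting error only.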

Additional observations from a re-analysis of the deposited data

Results flagged for a closer look

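For the 48 tested genes named with values, a liver was set apart from the other 4 of its group where its gap to the nearest one exceeded 0.71 of the range of the group (Dixon's criterion). This held in 6 of 96 groups against 4.8 that chance would give, as about 1 in 20 groups is set apart without cause. Among the 10 acute phase genes no liver was set apart. In MI-883-treated replicate 4 the CPM of *Saa3* was 41.3 (nearest 14.5) and that of *Hamp* 563 (nearest 348). The CPM of *Itih2* was 955 in control replicate 5 (nearest 774), the CPM of *Tnf* was 0.592 in MI-883-treated replicate 3 (nearest 0.305), the CPM of *Lrp2* was 0.735 in control replicate 3 (nearest 0.29), and the CPM of *Cdh5* was 5.12 in control replicate 4 (nearest 6.48).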

How the results depend on the processing

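The number of genes called moved from 136 to 463 in DESeq2, which called all 136 as well, and to 89 with a replicate block. Deviations of same-numbered livers correlated at between -0.121 and 0.358. These values were not compared with those of differently numbered livers, so they do not settle whether the numbers pair the livers. With one liver left out the count lay between 62 and 208. It was 208 without control replicate 1, 87, 81, 75 and 68 without control replicates 2 to 5, and 70 and 62 without treated replicates 2 and 5. Of the 10 acute phase genes 0 were called with the replicate block and in all other fits over 10 livers, and 0 to 1 with one liver left out, where the 1 was *Orm2* without control replicate 1. In the lists 1 gene was called (*Orm3*), 6 in DESeq2 and 2 with total counts (*Orm3* and *Apoa1*). The number of acute phase genes with an exact permutation p of the level under 0.05 was 2, fell to 1 with total counts, and lay between 0 and 2 with one liver left out. *Hpx* missed it without control replicate 4 and without treated replicates 2 and 5, and *Orm2* without treated replicates 1, 3 and 5. For the spread the number was 0, became 1 with SDs and lay between 0 and 2 with one liver left out. Besides *Saa1* and *Hp* without treated replicate 2, these were *Hp* without treated replicates 1 and 4, and *Orm2* without control replicate 4. In a group of 4 livers the median is no longer the value of a liver, so these p-values are not on the footing of the test over 10 livers. The number of pairs called was 7, 3 with group means kept (*Saa1* with *Saa2*, *Itih3* with *Itih4* and *Orm2*) and 6 with permutation within groups. With total counts the log2 fold change of *Hp* turned to 0.018 and that of *Orm1* to 0.030, while the median of all tested genes moved by 0.044, and *Orm1* was at 0.0021 with 60 counts in every liver and *Stat3* at -0.0017 without a count filter. With one liver left out the values lay between -0.36 and 0.12 for *Saa1*, -0.37 and 0.10 for *Saa2*, -0.081 and 0.055 for *Hp*, -0.10 and 0.042 for *Orm1*, -0.25 and 0.0079 for *Itih4*, -0.30 and -0.063 for *Itih3*, 0.27 and 0.63 for *Lcn2*, -0.39 and 0.69 for *Saa3*, -0.096 and 0.12 for *Stat3*, -0.067 and 0.52 for *S100a9*, -0.21 and 0.27 for *Tnf*, and -0.38 and 0.028 for *Il1b*. Except for the settings that change the samples or the filter, the cause was not tested. With 5 livers per group, differences of any size within the intervals given were not excluded.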
